A study of Canis lupus familiaris with 18 samples.

Results

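The genes described here encode the proteins of the cytosolic ribosome, measured in 18 primary osteosarcomas of dogs. They were chosen by a rule on gene names, with earlier results of these data known. A probe set, the group of short probes that reports 1 transcript on the array, was taken where the platform annotation gave it 1 gene symbol of the form RPL or RPS followed by a number, with the endings A, X, L and the stalk proteins RPLP0 to RPLP2 allowed. Kinases of ribosomal protein S6 and proteins of the mitochondrial ribosome were left out. This gave 54 genes, 33 of the large subunit and 21 of the small subunit, among 15115 genes that have a probe set with a single symbol. They are covered by 111 of the 42924 probe sets that are not controls, and each gene is represented by its probe set of highest mean over the 18 arrays. Another 75 probe sets list a ribosomal protein together with other genes and were not used, and RPSA, RPS6 and RPL39L are not analysed here.

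Osteosarcoma is a malignant bone tumour whose cells lay down bone matrix, and it is common in large dogs. Of the tumours, 9 came from dogs with a normal serum concentration of alkaline phosphatase (ALP), an enzyme shed by bone-forming cells and liver that is used as a marker of outcome in this disease, and 9 from dogs in which it was increased. All were snap-frozen tissue taken at surgery, biopsy or necropsy, with 1 canine Affymetrix array per tumour and no reference tissue. Breed, age, sex, treatment, the procedure behind each tumour and scan batches were not given in the labels used here. Among 15 osteoblast genes, signals of the matrix genes COL1A1 (12.75 to 14.88), COL1A2 (14.59 to 15.09) and SPARC (13.52 to 14.43) were high in every tumour on a log2 scale. Others were low in some tumours: IBSP ranged from 4.85 to 14.21, ALPL, which encodes the ALP of bone, from 6.5 to 13.57, OMD from 6.54 to 13.23, SPP1 from 9.06 to 13.86 and BGLAP, which encodes osteocalcin, from 6.29 to 12.41. In whole tumour tissue, fewer cells of a type and less RNA per cell cannot be told apart.

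The ribosome is built from a small subunit, which holds the messenger RNA and reads its codons, and a large subunit, which joins amino acids into protein. Each protein is present once or a few times per ribosome, and cells keep the production of the different proteins balanced. Most of the mRNAs carry a short pyrimidine-rich tract at their start through which mTOR signalling controls their translation, so mRNA level is only 1 of the layers of control. A few genes have paralogues used in particular tissues, such as RPL3L in muscle and RPL10L in testis.

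All values are deposited log2 signals, to which an offset of 16 was added on the linear scale, written below as log2(signal + 16). A difference of 0.5 on this scale is 1.41-fold, and the offset understates changes of dim probe sets. Signals of different probe sets depend on the probes as well as on the transcript, so levels are compared between tumours and not between genes. Tests used limma with Benjamini-Hochberg adjustment over all 25754 probe sets whose mean lay at or above the 40th percentile. Of the 54 genes, 53 entered the tests, and RPL37A, with a mean of 5.08, did not. The arrays of increased ALP tumours 3 and 6 stood apart in their spike-in controls, described further on, and results that rest on them are given with and without them.

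Most ribosomal protein probe sets were bright and steady. For 43 of the 54 genes the mean was 13 or more, a level that 234 probe sets outside the set also reached. No single symbol was required of those 234. Probe sets that list a ribosomal protein together with other genes, or list no gene, may be among them. The paralogues RPL3L (7.02) and RPL10L (6.61), as well as RPL22 (6.29) and RPS4X (7.67), were dim. Many of the probe sets can read more than 1 transcript: 44 of the 54 have names that end in _s_at, _x_at or _a_at, the array maker's marks for probes shared between transcripts or gene copies, and 10 end in plain _at. Ribosomal protein genes have many processed pseudogenes, so the signal of a single gene is uncertain wherever probes are shared.

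The spread between tumours was small. The SD within the ALP groups had a median of 0.160 over the 54 genes, 0.167 in the large subunit and 0.137 in the small subunit. It was 0.36 over all probe sets tested and 0.207 over the 234 bright probe sets outside the set. From lowest to highest tumour the range was between 0.19 and 2.13, with a median of 0.58, and for 16 genes the whole range over 18 tumours was under 0.5. These are descriptions of a set chosen by name, without a test.

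**Figure D1:**
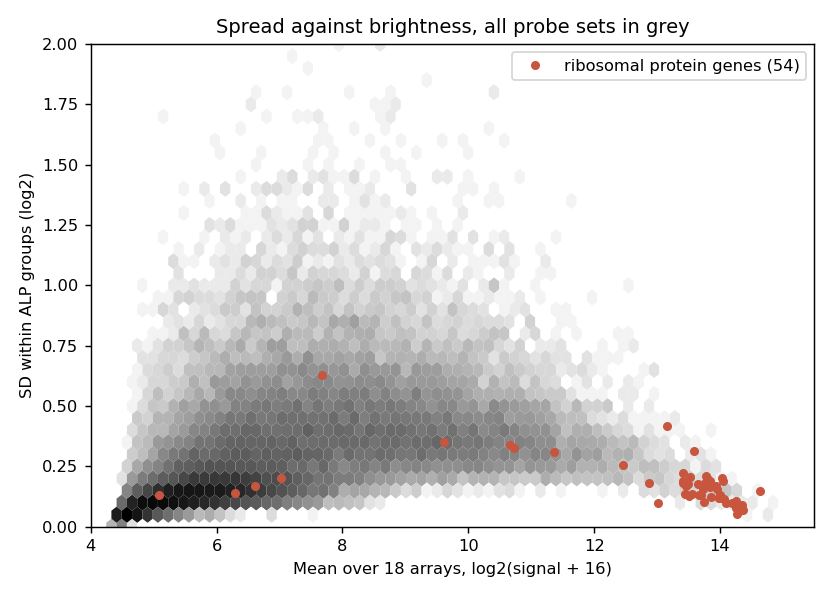
SD within the ALP groups (log2, vertical axis) against the mean over 18 arrays (log2(signal + 16), horizontal axis), with the 54 ribosomal protein genes as red points and all probe sets in grey, darker where more probe sets lie. Most red points sit at the bright end with SDs near their median of 0.160, RPS4X lies highest at 0.629, and the vertical axis stops short of the largest grey values, which reach 3.99.

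Single tumours rarely departed from a gene's mean. Of the 972 values of 54 genes in 18 tumours, 27 (2.78%) lay 0.5 or more from the gene's own mean. The share was 7.69% for the bright probe sets outside the set and 19.99% for all probe sets tested. These 27 values belonged to 12 genes, and the other 42 genes had none. Normal ALP tumours 2 and 6 held 5 each, and 5 tumours held none.

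RPS4X, the X-linked gene of a small-subunit protein, accounted for 9 of the 27 departures. Its level was 6.76 in the lowest, 7.77 in the median and 8.36 in the highest normal ALP tumour, and 6.63, 7.67 and 8.76 in the increased ALP tumours. Both groups therefore contained high and low tumours across almost the same range. The groups differed by 0.241 ± 0.280 (SE, n = 9 and 9), within a 95% interval of -0.346 to 0.827 and at an adjusted p of 0.91 by limma. It rests on a single plain _at probe set.

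The remaining departures fell in 11 genes, each in 1 to 3 tumours. RPL26, which sits near the peptide exit of the large subunit, stood at 11.73 in normal ALP tumour 2, where the next highest of the 18 tumours had 11.09. RPL36, another large-subunit protein, stood at 12.14 in normal ALP tumour 6 and at 13.94 in normal ALP tumour 2, against a mean of 13.16. In tumour 2 of the normal ALP group RPS13, a small-subunit protein at the interface with the large subunit, was also highest at 14.62, with the next tumour at 14.14. RPS10, a small-subunit protein mutated in some families with Diamond-Blackfan anaemia, was high at 10.23, 10.24 and 10.35 in increased ALP tumours 3, 5 and 8, where its mean was 9.61. Another RPS10 probe set, with a mean of 8.81, correlated with it at r = 0.542 over the 18 tumours. RPL26, RPL36 and RPS13 each have 1 probe set with a single symbol, so their departures could not be compared with a further one.

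**Figure D2:**
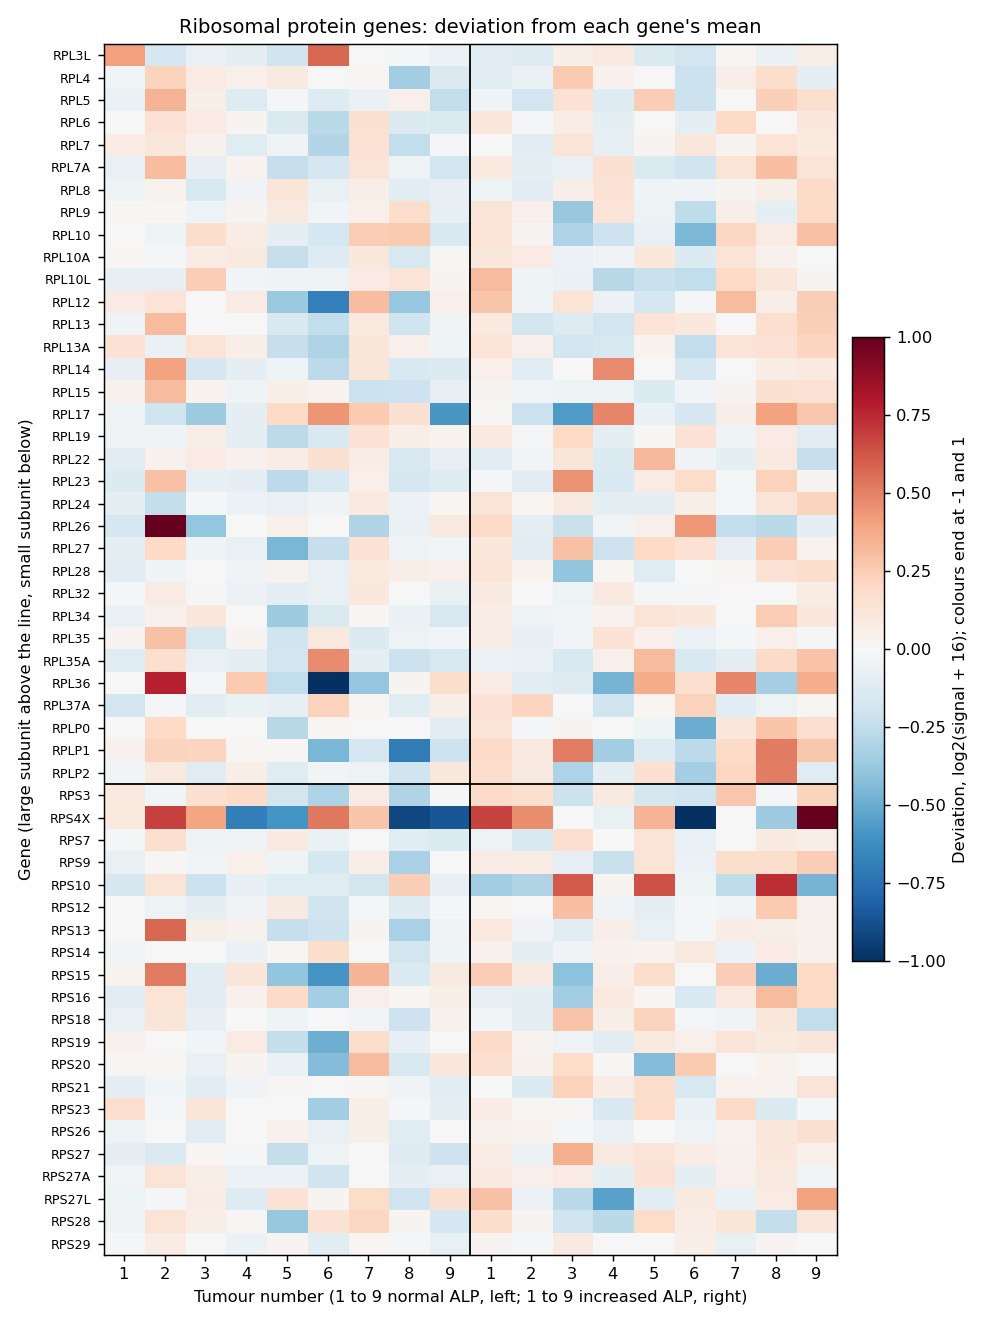
Deviation of each ribosomal protein gene from its own mean over 18 tumours (log2(signal + 16), colour) with genes in rows, large subunit above the horizontal line and small subunit below it, and tumours in columns, normal ALP left of the vertical line and increased ALP right of it. Most cells are pale, the 27 values of 0.5 or more fall in 12 rows, and the row of RPS4X changes colour in both groups.

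The 2 subunits varied together from tumour to tumour. The mean deviation of the 33 large-subunit genes correlated with that of the 21 small-subunit genes at r = 0.903 (Spearman's rho 0.928, n = 18 tumours), at 0.93 without normal ALP tumour 2 and increased ALP tumour 8, at 0.93 within the normal ALP group and at 0.846 within the increased ALP group. The points share array and scaling, and no p-value is given because the genes were picked as a set. Over all 54 genes the mean deviation spanned -0.112 to 0.136, a span of 1.19-fold between the lowest and the highest tumour. It was lowest in normal ALP tumours 8, 6 and 5 (-0.112, -0.111 and -0.105) and highest in normal ALP tumour 2 (0.136), followed by increased ALP tumours 9 (0.109) and 8 (0.097). In increased ALP tumour 8, 43 of the 54 genes lay above their own mean, and in normal ALP tumour 8, 13 did.

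**Figure D3:**
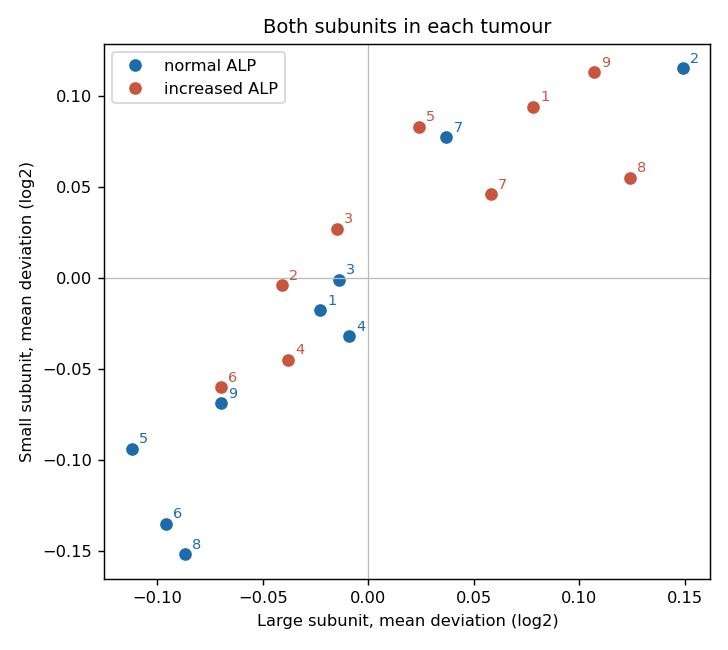
Mean deviation of the 21 small-subunit genes (log2, vertical axis) against that of the 33 large-subunit genes (log2, horizontal axis), 1 point per tumour, numbered within its group, normal ALP blue and increased ALP red. The points follow a rising line (r = 0.903), with normal ALP tumour 2 at the upper right and normal ALP tumours 5, 6 and 8 at the lower left.

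Pairs of single genes were much less alike than these means. The mean correlation between 2 ribosomal protein genes over the 18 tumours was 0.181, with 0.175 within the large subunit, 0.187 within the small subunit and 0.184 between the subunits. It was 0.183 among normal ALP tumours and 0.119 among increased ALP tumours. The same mean over the other 10664 genes tested was 0.003, and over the 234 bright probe sets outside the set 0.01. Scaling every array to a common 75th percentile raised the value for the ribosomal protein genes to 0.294, and without increased ALP tumours 3 and 6 it was 0.216. The means over the other genes and the bright probe sets were not computed under either setting, so these values have no background beside them.

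Against the mean of all the other members, 21 genes had a correlation above 0.5, 4 lay below 0 and the median was 0.406. RPL13 (0.829), RPL6 (0.822) and RPL7A (0.765), all proteins of the large subunit, were most like the rest. RPL6 was also the gene with most probe sets: 10 of its 11 were tested, the others among them correlated with its main one at 0.448 to 0.906, and their ALP differences ran from 0.032 to 0.24. The genes least like the rest were RPL3L (-0.303), RPL37A (-0.102) and RPL17 (-0.048), a large-subunit protein at the exit tunnel. RPL37A was among the dimmest, below the filter. For RPL17 a further probe set, with a mean of 9.13, correlated with the members' mean at 0.622 while the main one, at 10.73, did so at 0.027, with r = 0.159 between them. The third RPL17 probe set, with a mean of 10.1, went with the main one (r = 0.872) and had r = 0.035 with the members' mean.

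Outside the set, 5 of 10664 genes were named for the highest correlation with the members' mean deviation. They were LOC478124 (0.842), LOC475097 (0.809), SREBF1 (0.78), which encodes a regulator of lipid synthesis, FAM168A (0.725) and LOC607265 (0.724). On other probe sets the platform annotation lists LOC478124 beside RPL32 and LOC475097 beside RPL17, and RefSeq (UU_Cfam_GSD_1.0) records LOC478124 and LOC607265 as pseudogenes. The genes running most opposite were FAM149B1 (-0.795), LRPAP1 (-0.754), an endoplasmic reticulum chaperone of lipoprotein receptors, LOC485909 (-0.719), TRAK2 (-0.687), a mitochondrial transport adaptor, and HAPLN3 (-0.685), a matrix link protein. With 18 tumours and 10664 genes, extremes of this kind are picked from a long list, and they are given as a description.

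Ribosomal protein genes were not called different between dogs with normal and increased ALP. None of the 53 genes tested passed an adjusted p of 0.05 by limma (0 of 53, with a background of 0% of 25754 probe sets). The smallest adjusted p among them, 0.608 for RPS27, equalled the smallest over all probe sets. Benjamini-Hochberg adjustment can give many probe sets the same value, so this does not place RPS27 first on the array. At an unadjusted p under 0.05, 2 genes were higher, RPS27 of the small and RPL34 of the large subunit, and 0 lower, that is 3.77% of the 53 against 1.92% of all probe sets higher and 4.22% lower (6.14% together). The values of the 2 groups overlapped for all 54 genes, as they did for all 25754 probe sets tested.

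The estimates leaned upward without passing the test. For 46 of the 54 genes, 27 of 33 in the large and 19 of 21 in the small subunit, the increased ALP mean was above the normal ALP mean. The same held for 51.5% of all probe sets tested and 53.0% of the bright probe sets outside the set. The median difference was 0.058 over the 54 genes (0.059 in the large and 0.058 in the small subunit). It was 0.007 over all probe sets tested and 0.009 over the bright ones outside the set. Because the members varied together, these 46 estimates are not 46 separate observations. As a mean over all members, the deviation of the normal ALP tumours was -0.112 in the lowest, -0.021 in the median and 0.136 in the highest, and that of the increased ALP tumours -0.066, 0.047 and 0.109. It was above 0 in 2 of 9 normal and 6 of 9 increased ALP tumours, and the normal ALP group held both the lowest and the highest tumour. Its group means were -0.029 ± 0.083 (SD, n = 9) and 0.029 ± 0.064 (SD, n = 9).

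The size of the difference moved with the covariate and the scaling. The actin 3' to middle difference, described below, was larger in the increased ALP group, and with it as a covariate the median was 0.035 with 37 of 54 genes higher, or 0.039 with 40 higher by the second set of actin controls. With each array scaled to a common 75th percentile the median was 0.101 with 49 higher, when the median of all probe sets tested also moved, to 0.047, and after quantile normalization it was 0.046 with 44 higher and 0.026 for all probe sets. Leaving out any 1 tumour gave medians between 0.04 and 0.07 and between 40 and 47 genes higher, the lowest count without normal ALP tumour 6. Without increased ALP tumours 3 and 6 together the median was 0.071, with 49 genes higher.

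The 95% intervals limit how large a difference in the measured signal could be under the main settings. They do not cover the choice of scaling, offset or probe set. For 51 of the 53 genes tested the interval lay within 0.5 of 0, and for 42 within 0.3 of 0, a change of 1.23-fold. Only those of RPS27 and RPL34 left out 0.

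RPS27 encodes a zinc-finger protein on the small subunit and is often overexpressed in human tumours. Its level in normal ALP tumours was 13.50 in the lowest, 13.64 in the median and 13.76 in the highest, and in increased ALP tumours 13.68, 13.81 and 14.09. The groups overlapped at their edges, and the highest value, in increased ALP tumour 3, stood apart from the other 8 of that group (13.68 to 13.87). On average RPS27 was 0.187 ± 0.056 (SE) higher, or 1.14-fold, within a 95% interval of 0.071 to 0.304 and at an unadjusted p of 0.00327 and an adjusted p of 0.608 by limma. A 2-sided exact permutation test over tumours gave p = 0.000617 before any adjustment, for a gene selected here for its small p. Without increased ALP tumour 3 the difference was 0.156, and with the actin measure as a covariate 0.101 (unadjusted p = 0.163 by limma). With the same measure from a second set of actin controls on the array, an alternative added after seeing the data, it was 0.207 (unadjusted p = 0.00864 by limma). Another RPS27 probe set, dim at 5.37 and not tested, differed by 0.108 and correlated with the main one at 0.719. Its paralogue RPS27L stood at -0.041 ± 0.103 (interval -0.256 to 0.174), a sign that turned with 75th percentile scaling (0.004), with array weights (0.032) and without increased ALP tumour 4 (0.024). RPS27L stood at 13.21, 13.44 and 13.59 in normal and at 12.87, 13.35 and 13.81 in increased ALP tumours, the widest span lying in the increased ALP group.

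RPL34, a large-subunit protein, stood at 13.63, 13.92 and 14.10 in the lowest, median and highest normal ALP tumour and at 13.94, 14.06 and 14.24 in the increased ALP tumours. Most increased ALP values lay within the upper part of the normal ALP range. RPL34 was 0.136 ± 0.060 (SE) higher on average in the increased ALP group, within a 95% interval of 0.011 to 0.261. By limma its unadjusted p was 0.035 and its adjusted p 0.776. An exact permutation test gave p = 0.0203 before any adjustment, again for a gene selected here for its small p. Of its other tested probe sets, the one with a mean of 9.91 differed by 0.046 and the one with a mean of 7.98 by -0.014, and they correlated with the main one at 0.157 and 0.413.

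RPLP1, RPLP2 and RPLP0 form the stalk of the large subunit that recruits elongation factors. RPLP1 stood at 10.67, 11.38 and 11.59 in the lowest, median and highest normal ALP tumour and at 11.02, 11.56 and 11.89 in the increased ALP tumours. The groups overlapped over most of their range, with normal ALP tumour 8 lowest of all. Its difference was 0.232 ± 0.146 (interval -0.074 to 0.539; adjusted p = 0.85 by limma), and a second RPLP1 probe set that correlated with it at 0.97 differed by 0.344 ± 0.148 (unadjusted p = 0.0311, adjusted p = 0.766 by limma). The partner RPLP2 differed by 0.061 ± 0.096 and the scaffold RPLP0 by 0.038 ± 0.084. RPLP2 was highest at 14.04 in increased ALP tumour 8, and RPLP0 was lowest at 13.16 in increased ALP tumour 6, where the other tumours of that group had 13.61 to 13.93. The 3 stalk genes thus had differences of the same sign and intervals that all held 0.

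Among the other large-subunit genes with the smallest p on the upper side, RPL23, which binds MDM2, differed by 0.15 ± 0.084 (interval -0.026 to 0.327). RPL24, part of a bridge to the small subunit, differed by 0.103 ± 0.059 (-0.02 to 0.226), and RPL27 by 0.141 ± 0.090 (-0.047 to 0.33). With the actin measure as a covariate RPL23 stood at -0.031 and RPL27 at -0.057, while with the second set of actin controls they stood at 0.14 and 0.104. On the lower side, RPL3L stood at -0.085 ± 0.1, RPL10, which takes part in the last steps of large-subunit maturation, at -0.066 ± 0.097, RPL26 at -0.063 ± 0.161, RPL9 at -0.048 ± 0.069 and RPL10L at -0.044 ± 0.084. The signs of RPL9, RPL10, RPL10L and RPL26 turned under at least 1 alternative. RPL26 was 0.066 without normal ALP tumour 2, the tumour with its high value.

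In the small subunit, RPS19, the gene most often mutated in Diamond-Blackfan anaemia, differed by 0.122 ± 0.075 (interval -0.035 to 0.28). RPS9, a protein of ribosome decoding accuracy, differed by 0.118 ± 0.069 (-0.028 to 0.263), RPS12 by 0.098 ± 0.058 and RPS21 by 0.081 ± 0.053. RPS28 stood at -0.001 ± 0.085, and its sign changed with the setting. The narrowest interval of all, -0.048 to 0.105, belonged to RPS29, with 14.16 to 14.34 in normal and 14.19 to 14.35 in increased ALP tumours.

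**Figure D4:**
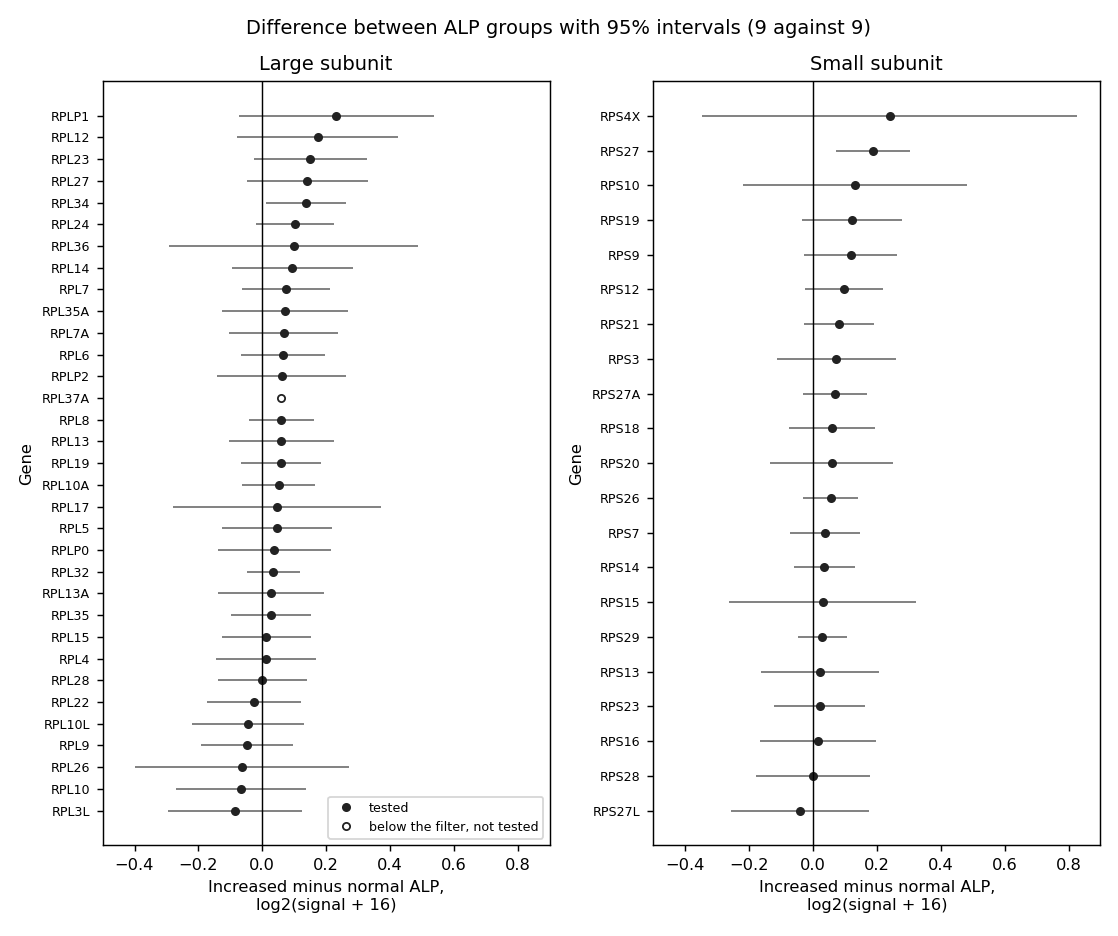
Difference between ALP groups (increased minus normal, log2(signal + 16), horizontal axis) for each ribosomal protein gene, 9 tumours against 9, with 95% intervals from limma; the open circle marks RPL37A, which was not tested. Points lie right of 0 for 46 of 54 genes, and only the intervals of RPS27 and RPL34 do not cross 0.

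Further probe sets of the same genes were compared with the main ones on the same arrays. For 23 genes, 43 other probe sets entered the test, and their correlation with the gene's main probe set had a median of 0.624 and ran from -0.01 to 0.97, with 27 above 0.5. Their ALP differences had the sign of the main one in 36 of 43 cases. As 36 of the 43 were higher in the increased ALP group, like most main ones, much of this agreement follows from the shared direction. Genes with several probe sets also count more than once in it. Over all 96 tested probe sets of the set, 80 were higher in the increased ALP group, with a median of 0.058, and 0 were called. RPS20, a small-subunit protein, has 6 tested probe sets. The other 5 correlated with its main one at 0.603 to 0.955, and all 6 had a difference above 0, from 0.007 to 0.142.

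The paralogue RPL3L has a known tissue of its own, muscle. Its main probe set stood at 7.59 in normal ALP tumour 6 and 7.43 in normal ALP tumour 1, and between 6.82 and 7.11 elsewhere. The mean of 14 skeletal muscle genes was 11.76 in normal ALP tumour 1 and 9.99 in increased ALP tumour 4, 7.86 in normal ALP tumour 9 and at most 6.93 in the others, 6.12 in normal ALP tumour 6. RPL3L correlated with that mean at r = 0.424 (rho 0.121, n = 18) by its main probe set and at 0.816 and 0.764 by its 2 dimmer probe sets, which lay below the filter. The main probe set was thus high in 1 tumour with a high muscle mean and in 1 without.

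Array quality was read from the array's own control probe sets. For GAPDH and actin, the signal of the 3' control minus that of the middle control rises when labelled RNA is shorter, and the mean deviation of 27 spiked-in bacterial controls follows hybridisation and scaling. The GAPDH difference was 0.379, 0.565 and 0.722 (lowest, median, highest) in normal and 0.485, 0.653 and 0.876 in increased ALP tumours. The actin difference was 1.186, 1.402 and 1.762 against 1.441, 1.758 and 2.174, and it correlated with the ALP group at 0.667, the GAPDH difference at 0.373. The spike-in mean stood apart at 1.034 in increased ALP tumour 3 and 0.677 in increased ALP tumour 6, with the other tumours between -0.553 and 0.221, and these 2 arrays had the narrowest spread of signals (interquartile range 3.077 and 2.951). Slopes on each measure were fitted with the ALP group in the model, and are given in log2 units per SD of the measure.

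On the GAPDH measure 0 of 53 members were called (background 0%), and at an unadjusted p under 0.05 there were 6 (11.3%, background 14.8%), 5 lower (9.43%, background 8.53%) and 1 higher (1.89%, background 6.28%). All 6 were large-subunit genes: RPL9 (-0.1 ± 0.031 SE), RPL7A (-0.110 ± 0.038), RPL14 (-0.115 ± 0.043), RPL17 (-0.189 ± 0.076) and RPLP0 (-0.095 ± 0.042) were lower, and RPL19 (0.067 ± 0.030) higher, where the measure was larger, with adjusted p-values of 0.172 to 0.314 by limma. RPL22 (0.074 ± 0.035) and RPS10 (0.135 ± 0.089) followed RPL19 on the rising side. On the actin measure 0 of 53 were called (background 0.113%) and 3 had an unadjusted p under 0.05 (5.66%, background 15.2%, or 6.24% for higher alone). They were RPL27 (0.153 ± 0.052), RPL23 (0.139 ± 0.049) and RPL19 (0.096 ± 0.035), all higher with a larger measure, with adjusted p-values of 0.182, 0.195 and 0.207 by limma. Of the falling slopes, those of smallest p were RPL9 (-0.091 ± 0.044), RPLP2 (-0.111 ± 0.063) and the small-subunit gene RPS16 (-0.095 ± 0.057), which did not pass. RPL23 and RPL27 are among the genes that also led on the upper side between the ALP groups. With the ALP group left out of the model, RPS27 was the 1 member called for actin, when 3.49% of all probe sets were called.

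Over all members the mean deviation correlated with the actin measure at r = 0.414 (rho 0.505, n = 18), at 0.693 without increased ALP tumours 3 and 6, at 0.538 within the normal and at 0.04 within the increased ALP group. The values within the groups depended on the control used. By the second set of actin controls r was 0.357, with -0.188 within the normal and 0.333 within the increased ALP group. By the actin 3' minus 5' difference it was 0.468, with 0.275 and 0.36. With the GAPDH measure r was -0.092 (rho -0.024), or -0.11 without increased ALP tumours 5 and 6, and with the spike-in mean -0.106 (rho -0.158), or -0.003 without increased ALP tumours 3 and 6. The small-subunit mean had r = 0.506 with the actin measure and the large-subunit mean 0.335. The part of RNA quality in the ALP estimates was not tested beyond these values.

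On the spike-in mean 1 of 53 members was called, RPL9 (1.89%, background 3.91%, or 1.30% for lower alone), and 8 had an unadjusted p under 0.05 (15.1%, background 21.8%). RPL9, a large-subunit protein, fell by 0.103 ± 0.027 (SE) per SD, with an adjusted p of 0.0434 by limma. It stood at 14.26 in the lowest increased ALP tumour, number 3, where its median was 14.69 in that group and 14.66 in the normal ALP group. The call depended on the 2 arrays that stand apart, and it was also lost on leaving out some single tumours of either group. Without increased ALP tumours 3 and 6 the slope was 0.005 per log2 unit of the measure in place of -0.283 (adjusted p = 0.992 by limma). The next probe set of RPL9, with a mean of 6.31, correlated with the main one at -0.01. RPL17 (-0.217 ± 0.065), RPL35A (-0.130 ± 0.040) and RPL19 (0.079 ± 0.025) had adjusted p-values of 0.0667, 0.0708 and 0.0802 by limma, and did not pass. RPS20 was the 1 small-subunit gene among the 8, at 0.109 ± 0.042.

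**Figure D5:**
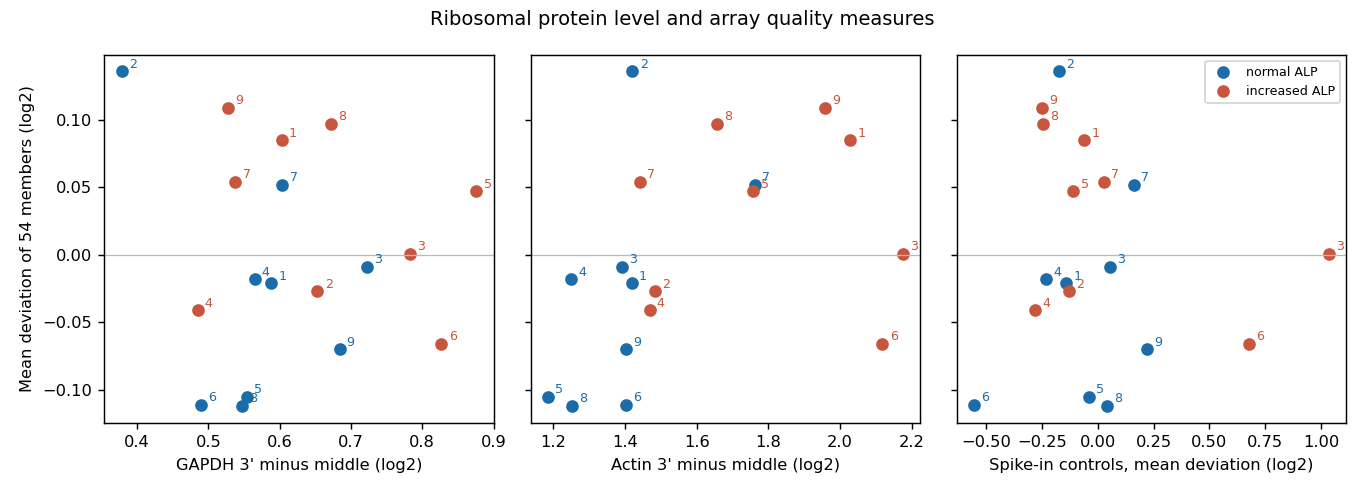
Mean deviation of the 54 ribosomal protein genes (log2, vertical axis) against the GAPDH 3' minus middle difference, the actin 3' minus middle difference and the mean deviation of the spike-in controls (all log2, horizontal axes), 1 point per tumour, numbered within its group, normal ALP blue and increased ALP red. Points rise with the actin measure (r = 0.414), and increased ALP tumours 3 and 6 lie alone at the right of the spike-in panel.

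The rest of the translation machinery showed no call between the ALP groups either. With 0 of 25754 probe sets called on the whole array, none could fall in these lists. For the counts of higher genes below, which include genes below the filter, the share over all probe sets tested was 51.5%. It was 58.3% when no filter was applied. Among fusion and associated genes outside the naming rule, 8 of 9 measured genes were higher, 0 called, with a median difference of 0.072, and their mean followed that of the ribosomal proteins at r = 0.619 (rho 0.579). In this list TPT1, whose product is the translationally controlled tumour protein, stood at 0.105 ± 0.059, the paralogue RPL26L1 at 0.389 ± 0.217 and RPL7L1 at -0.455 ± 0.25.

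Elongation is the step in which tRNA is brought to the ribosome and moved along. Of 10 genes listed for it, not all of which handle tRNA, 5 were higher and 5 lower (9 tested, 0 called, median -0.018). EEF1D stood at 0.17 ± 0.109, EEF1A1 at -0.162 ± 0.11 and EEF1E1 at 0.148 ± 0.227. Of 26 initiation factors, which assemble the ribosome on mRNA, 16 were higher and 10 lower (0 called, median 0.03), with EIF3H at 0.344 ± 0.149, EIF3G at -0.348 ± 0.187 and EIF5B at 0.237 ± 0.148. EIF3H was the 1 of these 26 with an unadjusted p under 0.05 (0.033, adjusted p = 0.773 by limma), a level that 6.14% of all probe sets tested passed.

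Ribosome assembly factors, which build the subunits in the nucleolus, were split at 19 higher and 19 lower of 38 (37 tested, 0 called, median 0.003), among them the export adaptor NMD3 at -0.6 ± 0.304, BYSL at 0.509 ± 0.286 and NIP7 at -0.458 ± 0.262. In mTOR and S6 kinase signalling 14 of 21 genes were higher (18 tested, 0 called, median 0.037), with the mTOR inhibitor DEPTOR at 0.698 ± 0.338, the mTORC1 component AKT1S1 at -0.383 ± 0.146 and the RNA-binding protein LARP4 at -0.65 ± 0.24. Mitochondrial ribosomal proteins, a separate ribosome that makes proteins of the respiratory chain, were higher for 42 of 73 (0 called, median 0.013), with MRPL4 at -0.552 ± 0.21, MRPS35 at -0.47 ± 0.234 and MRPS33 at -0.422 ± 0.207. Their mean followed that of the cytosolic proteins at r = 0.257 (rho 0.04). In the lists of this paragraph LARP4, AKT1S1 and MRPL4 had unadjusted p-values under 0.05 by limma (0.0141, 0.0167 and 0.0167). Their adjusted p-values by limma were 0.697, 0.717 and 0.717.

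Cell type markers were measured beside these values. The T and NK cell list had all 13 of 13 measured genes higher in the increased ALP group (9 tested, 0 called, median 0.226), with a mean level of 5.96 to 7.12 in normal and 6 to 7.16 in increased ALP tumours, and it correlated with the ribosomal protein mean at r = 0.407 (rho 0.377). The fat cell list was higher for 10 of 10 (7 tested) and the endothelial list for 11 of 12, with r of 0.126 and -0.179, and the osteoblast list for 8 of 15 (14 tested) with r of -0.191. Cell division genes were higher for 7 of 20 with r of 0.047, and macrophage genes for 10 of 13 with r of -0.015. Neutrophil genes were higher for 7 of 8 (7 tested; r = 0.027), B and plasma cell genes for 5 of 7 (2 tested; 0.242), red cell precursor genes for 4 of 4 (1 tested; -0.001), cartilage genes for 3 of 10 (7 tested; 0.062) and skeletal muscle genes for 2 of 14 (11 tested; -0.185). No tested gene of these lists was called, as no probe set on the array was (0 of 25754). The counts of higher genes include genes below the filter. Of all probe sets tested 51.5% were higher, and 58.3% when no filter was applied. The part of these cell types in the ribosomal protein estimates was not tested.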

How the data were processed

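Total RNA from snap-frozen tumours was extracted with Trizol, per the labels' protocols. Each deposited column holds log2 signals of 43035 probe sets, 111 of them controls. MAS5 is named, per the submitters' processing notes, with no version given, so the normalization behind the values stays unknown, and detection calls were not used here. Signals were returned to the linear scale, 16 was added and log2 taken again. Probe sets with a mean below 6.149, the 40th percentile, were left out. Differences between 9 normal and 9 increased ALP tumours, and slopes on each quality measure with the ALP group as a covariate, were fitted with limma 3.58.1 in R 4.3.3 (lmFit, eBayes with an intensity trend, 2-sided, Benjamini-Hochberg, threshold 0.05), and the code was tested on simulated data. Summaries and figures used Python 3.11.15, pandas 2.3.3, SciPy 1.17.1 and matplotlib 3.10.9.

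The members and lists were chosen with earlier results of these data known. Of the 54 genes, 52 matched a RefSeq gene by ID (UU_Cfam_GSD_1.0). Genes named were, in each subunit, the 5 higher and 5 lower members of smallest p between ALP groups, the 3 of smallest p per direction of each quality slope, the stalk proteins, RPS27, the L paralogues, the 3 most and least like the other members, the 5 other genes most and least correlated with the members, and the 3 of smallest p in each pathway list. Genes with departures, and RPS29 for its interval, were chosen after their values were seen. Nothing in the labels says whether the tumours differ in procedure or batch. The number of arrays limits the precision. Correlations between arrays ran from 0.921 to 0.981, and at most 0.1% of values were equal in 2 arrays, so no array was a copy of another. These values cannot show whether 2 arrays came from the same tumour. Each array was taken as 1 tumour by its title. Alternatives covered the offset, filter, scaling, eBayes settings, array weights, choice of probe set, quality covariates, a replicate block and leaving out tumours.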

Additional observations from a re-analysis of the deposited data

Results flagged for a closer look

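Of 74 sets of 9 tumours examined (the named members, their means and the quality measures in each ALP group), 6 had a tumour standing apart from the other 8 by Dixon's criterion, which chance alone gives in about 1 in 20. RPS27 stood at 14.09 in increased ALP tumour 3, where the other increased ALP tumours had 13.68 to 13.87, and this is also the array with the highest spike-in mean. RPLP0 stood at 13.16 in increased ALP tumour 6, against 13.61 to 13.93 in the rest of that group. RPS20 stood at 13.59 in increased ALP tumour 5, against 14.02 to 14.29, and RPL14, a large-subunit protein, at 13.88 in increased ALP tumour 4, against 13.24 to 13.5. RPL26 stood at 11.73 in normal ALP tumour 2, against 10.27 to 10.76. The actin 3' minus middle difference was 1.762 in normal ALP tumour 7, with the other normal ALP tumours between 1.19 and 1.42.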

How the results depend on the processing

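Between the ALP groups, 0 probe sets of any gene, and so 0 members, were called in the main fit and under each of the 36 alternatives. The median over the members stayed between 0.035 and 0.101. The replicate numbers in the titles do not pair the tumours: same-numbered tumours correlated at -0.164 to 0.27 and 0 of 9 pairs were best matched with each other. With the numbers as a replicate block the median was 0.058, RPS27 had an unadjusted p of 0.0074 and the members' smallest adjusted p by limma was 0.497. The signs of 9 named members turned under some settings, and the cause was not tested. RPS28 stood at 0.011 with quantile normalization, 0.044 with 75th percentile scaling, 0.058 with array weights, 0.016 without increased ALP tumours 3 and 6, 0.004 with a second GAPDH control set as covariate, an alternative chosen after seeing the data, and from -0.048 to 0.033 leaving out 1 tumour. RPS27L stood at 0.004 with 75th percentile scaling, 0.032 with weights and -0.093 to 0.024 leaving out 1 tumour. RPL9 stood at 0.004 with weights, 0.043 by its dimmest tested and by plain _at probe sets, 0.035 without increased ALP tumours 3 and 6, 0.024 with the GAPDH covariate and 0.069 with the actin covariate. RPL10 stood at 0.013 with weights and 0.032 without those tumours, RPL10L at 0.025 with weights, RPL34 at -0.014 by its dimmest tested probe set, RPL26 at 0.004 with the GAPDH covariate and -0.121 to 0.066 leaving out 1 tumour, and RPL23 and RPL27 at -0.031 and -0.057 with the actin covariate. Members called for slopes were 1 for GAPDH 3' minus 5' control (background 0.769%) and 1 for actin without the group (3.49%). For the spike-in mean, where the main count was 1, they were 0 at the 60th percentile filter, with quantile normalization, no trend, robust eBayes, weights, the dimmest or plain _at probe sets and without increased ALP tumours 3 and 6 (background 0% to 4.61%), 2 without the group (background 6.82%), 6 with 75th percentile scaling (10.9%), and 0 to 2 leaving out 1 tumour (0.645% to 4.46%). The RPL9 slope was 0.005 without increased ALP tumours 3 and 6. The mean correlation between members was 0.294 with 75th percentile scaling, a setting under which it was not computed for other genes.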
